A study of Zea mays with 6 samples.

Results

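Light-harvesting chlorophyll a/b binding proteins were represented by 6 nuclear genes of maize, out of 45578 entries with an FPKM (a measure of fragment number scaled to transcript length and to library size) in each library, 43789 of which carry Zm gene identifiers. The 6 genes were taken by their identifiers from a list of this protein family, and the rule that picks them uses no measured value. Below, the family means these 6 genes, and whether other entries encode such proteins could not be checked. The data came from the F1 hybrid B73×Mo17, a cross of the inbred lines B73 and Mo17, grown to 14 days with 16 h of light and 8 h of darkness per day. Aerial tissue of seedlings was used without any treatment. Each of 3 kinds of library had 2 biological replicates. Input mRNA was isolated as polyadenylated RNA and gave mRNA abundance, polysome RNA came from a sucrose gradient and gave the translational level, and immunoprecipitation with an antibody against N6-methyladenosine (m6A) gave m6A peaks relative to the input. The parental lines were not analysed here, so all comparisons are between kinds of RNA within the hybrid. Reads of the hybrid were mapped to the B73 genome alone, and the Mo17 alleles of these genes were not told apart.

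Light-harvesting proteins bind chlorophyll a, chlorophyll b, and carotenoids, and they form the antennae that pass light energy to photosystems I and II. They are encoded in the nucleus, translated on cytosolic ribosomes, and imported into the chloroplast, where they are inserted into the thylakoid membrane. Their transcripts are known as some of the most abundant of green leaves and follow light and the circadian clock. The hour of harvest is not given in the sources used here. None of the Zm identifiers matched the reference table of gene names, so the single antenna protein that each gene encodes is not stated, and no protein or promoter sequence was used. Other genes of photosynthesis could not be listed for the same reason.

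All 6 genes were short and highly expressed. Their gene spans on B73 RefGen_v4 ran from 795 to 1315 bp. *Zm00001d021435* lies on chromosome 7 from 152283433 to 152284280 on the minus strand, and *Zm00001d021763* on the same chromosome from 162636525 to 162637839, also on the minus strand. *Zm00001d011285* lies on chromosome 8 from 145825712 to 145826506 on the plus strand. The other 3 lie close together on the plus strand of chromosome 3, *Zm00001d044399* from 227152688 to 227153783, *Zm00001d044401* from 227191217 to 227192183, and *Zm00001d044402* from 227279692 to 227280658. The latter pair had the same span of 967 bp. How reads shared by similar copies were divided between the genes of this cluster was not tested, so the split of FPKM among these 3 is uncertain.

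The FPKM of *Zm00001d021435* was 2800.1 and 2787 in the input mRNA libraries (replicates 1 and 2) and 3677 and 3369.5 in the polysome libraries. It was the highest of the family in every library and held rank 7 among all Zm genes in both input libraries. *Zm00001d011285* had 1719.8 and 1695 FPKM in input mRNA, and 1878 and 1482 FPKM in polysome RNA. Its polysome values lay on either side of its input values, so the kinds of RNA overlapped. *Zm00001d021763* had 1462 and 1421 FPKM in input mRNA, and 1744 and 1681 FPKM in polysome RNA. Both polysome values of this gene were above both input values.

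The chromosome 3 genes were less abundant. *Zm00001d044402* had 583 and 551 FPKM in input mRNA, and 904 and 664 FPKM in polysome RNA. *Zm00001d044399* had 319 and 308 FPKM in input mRNA, and 476 and 369.7 FPKM in polysome RNA. *Zm00001d044401* had 291 and 281 FPKM in input mRNA, and 493 and 375 FPKM in polysome RNA. In each of these genes both polysome values exceeded both input values, and the polysome replicates were further apart than the input replicates. With 2 libraries against 2, an exact permutation test of a single gene cannot give a two-sided *P* below 0.333, so values that do not overlap carry no test of their own.

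**Figure D1:**
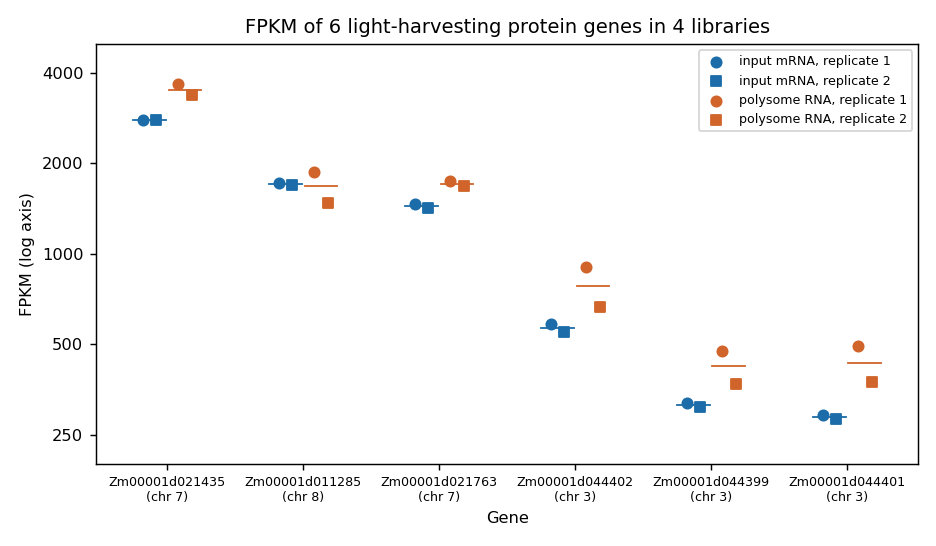
FPKM (log axis) of the 6 genes in each of 4 libraries, with blue for input mRNA, orange for polysome RNA, circles for replicate 1, squares for replicate 2, and lines for the means of 2 replicates. The input replicates nearly coincide, whereas polysome replicate 2 is below replicate 1 in all 6 genes, and only *Zm00001d011285* has a polysome value below its input values.

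Together the 6 genes summed to 7175 and 7044 FPKM in the input mRNA libraries and to 9171 and 7941 FPKM in the polysome libraries. As a share of the FPKM of all Zm genes, this was 1.58% and 1.55% in input mRNA and 1.24% and 1.13% in polysome RNA. The summed FPKM was thus higher in polysome RNA while the share among Zm genes was lower. Entries with ENSRNA identifiers (annotated non-coding RNA) took 59.6% and 58.9% of all FPKM in the input libraries and 24.6% and 25.9% in the polysome libraries. The ranks moved the same way as the shares. *Zm00001d021435* went from rank 7 in both input libraries to ranks 24 and 26 in the polysome libraries, and *Zm00001d011285* from 27 and 26 to 60 and 70. *Zm00001d021763* went from 37 and 34 to 64 and 57. In the chromosome 3 cluster, *Zm00001d044402* went from 87 and 91 to 121 and 147, *Zm00001d044399* from 156 and 165 to 213 and 267, and *Zm00001d044401* from 168 and 184 to 208 and 263. All 6 genes had a higher rank number, which is a lower place, in both polysome libraries than in both input libraries.

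The replicates differed in polysome RNA more than in input mRNA. Between the input replicates the absolute log2 difference was at most 0.08 in the 6 genes, against a median of 0.17 over the 19397 Zm genes with a mean input FPKM of at least 1. Between the polysome replicates it ranged from 0.05 in *Zm00001d021763* to 0.44 in *Zm00001d044402*, against a median of 0.22. All 6 genes were lower in polysome replicate 2, by 3.60% to 26.5%, while 34.0% of the expressed Zm genes were lower in that library. The drop was 26.5% in *Zm00001d044402*, 23.9% in *Zm00001d044401*, 22.3% in *Zm00001d044399*, and 21.1% in *Zm00001d011285*. It was 8.36% in *Zm00001d021435* and 3.60% in *Zm00001d021763*. The absolute log2 difference of *Zm00001d044402* between polysome replicates exceeded that of 96.6% of the 58 genes of like abundance and length defined below, and that of *Zm00001d021763* exceeded 2.27% of its 44.

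Translational efficiency, the ratio of mean polysome to mean input mRNA FPKM, was between 0.984 and 1.52 in the 6 genes, with a median of 1.31. The median over the expressed Zm genes was 0.861. The lowest value was that of *Zm00001d011285*, 0.984, with 1.09 in replicate 1 and 0.874 in replicate 2. *Zm00001d021763* followed at 1.19 (1.19 and 1.18 in the replicates) and *Zm00001d021435* at 1.26 (1.31 and 1.21). The chromosome 3 genes were at the upper end of the family. *Zm00001d044399* had 1.35 (1.49 and 1.20), *Zm00001d044402* had 1.38 (1.55 and 1.21), and *Zm00001d044401* had 1.52 (1.69 and 1.33).

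Neighbours in this order were often not separated by their replicates. Of 15 pairs of genes, 13 kept their order in both replicates, and in 10 pairs the replicate values did not overlap. Among the 5 neighbouring pairs, the values did not overlap in 2, which were *Zm00001d011285* below *Zm00001d021763* and the latter below *Zm00001d021435*. The efficiency of *Zm00001d044401* exceeded that of *Zm00001d011285* by a factor of 1.55 in replicate 1 and 1.53 in replicate 2. This factor compares genes within a library, so no scaling between libraries enters it.

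Ratios between genes of the family within a library were nearly constant in input mRNA and shifted in polysome RNA for some pairs. The ratio of *Zm00001d044402* to *Zm00001d044401* was 1.999 and 1.96 in input mRNA, and 1.83 and 1.77 in polysome RNA. The ratio of *Zm00001d044402* to *Zm00001d044399* was 1.83 and 1.79 in input mRNA and 1.90 and 1.80 in polysome RNA, which overlap. *Zm00001d021435* exceeded *Zm00001d011285* by a factor of 1.63 and 1.64 in input mRNA and of 1.96 and 2.27 in polysome RNA. The FPKM of *Zm00001d011285* was 1.18 and 1.19 times that of *Zm00001d021763* in input mRNA, but 1.08 and 0.881 times in polysome RNA, so their order turned in polysome replicate 2.

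Whether the polysome level of each gene differed from its mRNA level beyond replicate error was tested by limma on log2(FPKM + 0.1) over the 19518 entries with a mean FPKM of at least 1. At an adjusted *P* of 0.01 (Benjamini–Hochberg over all entries) and a fold change of 1.5, none of the 6 genes passed in either direction. The same thresholds were passed by 43.4% of all entries, 21.1% higher and 22.2% lower in polysome RNA. At an unadjusted *P* under 0.05, 5 of the 6 genes passed in limma, all but *Zm00001d011285*, as did 67.6% of all entries. This count of 5 was 4 with the replicate number as a block, where 67.6% of all entries passed. It was 3 without a filter on low values, where 49.9% of all entries passed. With ENSRNA entries left out and libraries rescaled, 3 genes passed in limma, as did 73% of all entries. These were *Zm00001d011285*, *Zm00001d021435*, and *Zm00001d021763*, and all of them were lower in polysome RNA on that scale. The log2 fold change was largest in *Zm00001d044401*, at 0.59 (SE 0.15, adjusted *P*=0.0163, limma), past the fold threshold but not the threshold of *P*. It was −0.03 (SE 0.13, adjusted *P*=0.840) in *Zm00001d011285*. The other 4 genes had log2 fold changes from 0.25 to 0.45 and adjusted *P* values from 0.0257 (*Zm00001d021435*) to 0.0586 (*Zm00001d021763*) in the same limma fit. The median of the 6 genes was 0.38, and that of all entries −0.14.

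The fold changes of the chromosome 3 genes depended on which polysome replicate was used. Without polysome replicate 2, *Zm00001d044399*, *Zm00001d044401*, and *Zm00001d044402* had log2 fold changes of 0.60, 0.78, and 0.67. Without polysome replicate 1 the same genes fell to 0.24, 0.39, and 0.23, against 0.42, 0.59, and 0.45 with both. Each of these fits leaves a single polysome library, whose spread is not measured, so calls are not given for them.

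The direction of the fold changes depended on the scaling of the libraries. An FPKM is scaled to the size of its own library and to transcript length, so shares of summed FPKM are not shares of fragments. With the ENSRNA entries left out and each library rescaled to an equal sum, the log2 fold change was negative in all 6 genes, from −0.70 in *Zm00001d011285* to −0.08 in *Zm00001d044401*. On that scale *Zm00001d011285* passed as lower in polysome RNA (adjusted *P*=0.00123, limma). *Zm00001d021763* (−0.42, adjusted *P*=0.00319, limma) and *Zm00001d021435* (−0.34, adjusted *P*=0.00592, limma) passed the threshold of *P* but not that of fold change. The median of all entries on that scale was −0.79, with 54.4% of the entries called, 9.33% higher and 45.1% lower. With each library centred on its median, all 6 values were positive, from 0.20 to 0.82, none passed, and 44% of the entries were called, 26.8% higher and 17.2% lower. Relative to the median of all entries, *Zm00001d011285* was at 0.10, 0.10, and 0.09 under the deposited, centred, and rescaled values, and *Zm00001d044401* at 0.72, 0.72, and 0.71. All 6 genes were above the median of all entries under each of these 3 scalings, between the percentiles 52.8 and 71.1 of log2 fold change. These scalings act on whole libraries and shift all log2 fold changes nearly alike. They could therefore hardly move a gene relative to that median, and the 3 results are not separate evidence. Without polysome replicate 1, however, *Zm00001d011285* was at −0.14 relative to that median, at the percentile 45.5. Polyadenylated RNA was selected for the input, and for polysome RNA the methods mention no selection, so RNA selection and ribosome loading cannot be told apart in these ratios.

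**Figure D2:**
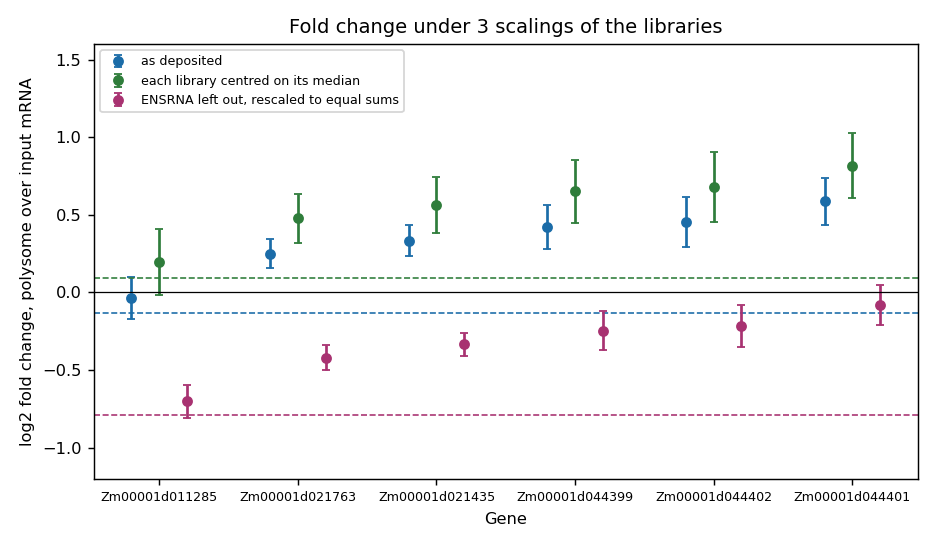
Log2 fold change of polysome over input mRNA FPKM for the 6 genes under 3 scalings, with bars for the standard error from limma on 2 libraries per kind and dashed lines for the median of all tested entries under the scaling of the same colour. The sign changes between scalings, from positive in 5 or 6 genes to negative in all 6, while every gene stays above the dashed line of its own scaling. A scaling shifts all entries nearly alike, so the place of a gene relative to that line could hardly change.

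The family was then set beside genes of like abundance and length, meaning other expressed Zm genes whose mean input mRNA FPKM and gene span were both within a factor of 2. Between 23 and 104 genes met this for a given member of the family, 176 genes in all. In every member, translational efficiency was below the median of its like genes, which ranged from 2.08 to 2.70. This also held in each replicate alone. None of the 39 genes like *Zm00001d011285* had a lower translational efficiency, and their median was 2.35. In replicate 1 alone 2 of 41 like genes were lower, and in replicate 2 alone 0 of 38. *Zm00001d021435* exceeded 17.4% of its 23 like genes, *Zm00001d021763* 18.2% of 44, and *Zm00001d044402* 24.1% of 58. *Zm00001d044401* exceeded 32.7% and *Zm00001d044399* 33.7% of 104 each. For this pair the places were 40.2% and 42.2% in replicate 1 alone, and 28.7% and 30.8% in replicate 2 alone. The efficiency of a member was between 0.419 and 0.663 times the median of its like genes, and 4 of the 6 were below the lower quartile (3 in replicate 1 alone and 4 in replicate 2 alone).

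Most of the like genes were called higher in polysome RNA. Of the 176 genes, limma called 111 (63.1%) higher and 17 lower on the deposited scale, and 48 were not called, as were all 6 light-harvesting genes. Within 1 replicate, such a rank is not affected by scaling between libraries, but it depends on the window. With abundance alone within a factor of 2 and no condition on length, the places of the 6 genes were 15.1% to 48.3%, all still below the median of like genes. The ratio to that median then reached 0.989, and 2 of the 6 were below the lower quartile, against all 6 with both conditions at a factor of 1.5. The difference between the family and these genes is a description and was not tested, and what the like genes encode is not given in the files.

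**Figure D3:**
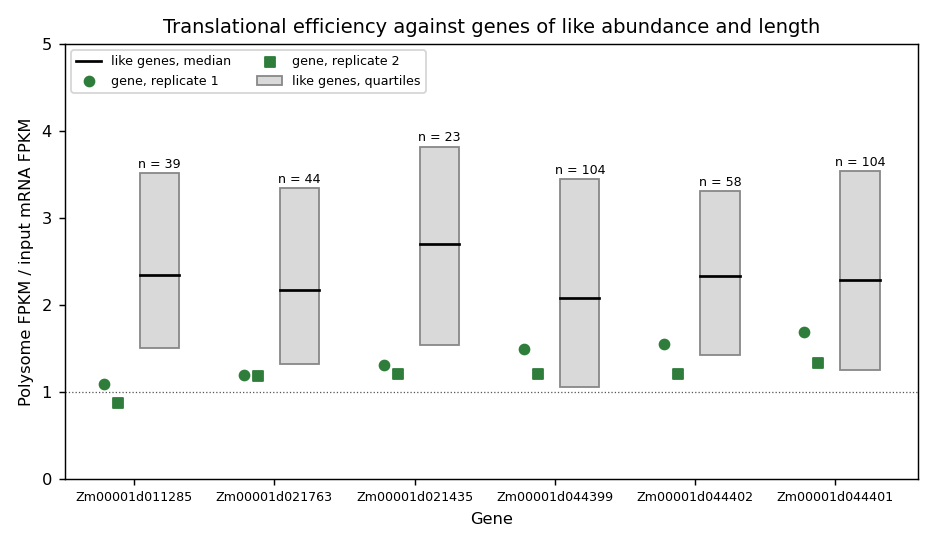
Translational efficiency (polysome FPKM over input mRNA FPKM) of each gene in replicates 1 (circles) and 2 (squares), beside grey boxes for the lower to upper quartile and black lines for the median of genes of like abundance and length, with their number. Both replicates of all 6 genes lie below the black line, and those of *Zm00001d011285*, *Zm00001d021763*, and *Zm00001d021435* lie below the whole box.

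By distance over the 4 libraries on log2(FPKM + 0.1), the nearest genes were partly other genes of the list. The nearest Zm gene to *Zm00001d044399* was *Zm00001d044401*, and the reverse held as well, at a distance of 0.19. The nearest to *Zm00001d011285* was *Zm00001d021763*, at 0.40. For the remaining 3 the nearest gene was not on the list, and for *Zm00001d021435* it was *Zm00001d036535*, at a distance of 0.23. That gene had 2685 and 2669 FPKM in input mRNA and 3172 and 3308 FPKM in polysome RNA, a translational efficiency of 1.21. The 2 unlisted genes nearest to the mean profile of the listed genes were *Zm00001d026599* (distance 0.24) and *Zm00001d037513* (0.30), with translational efficiencies of 1.08 and 1.37. Whether any of these unlisted genes encodes a light-harvesting protein could not be checked. These distances describe 4 libraries and reflect level more than pattern.

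No m6A peak was found in any of the 6 genes. m6A is a methyl mark on adenosines of mRNA, which in plants lies mostly near the stop codon and in the 3′ untranslated region. High-confidence peaks were those of replicate 1 that overlapped a peak of replicate 2 by at least 1 bp. Such a peak overlapped 0 of the 6 gene spans, whereas 52.4% of the 19397 expressed Zm genes had one. Neither the 17371 peaks of replicate 1 nor the 30378 of replicate 2, taken alone, overlapped a light-harvesting gene. A peak is listed when MACS2 finds it enriched, and the lowest fold enrichment in the files was 1.69 in replicate 1 and 1.65 in replicate 2, so weaker enrichment is not seen here.

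Peaks were scarce among other genes of this abundance and length too. None of the 39, 23, and 44 genes like *Zm00001d011285*, *Zm00001d021435*, and *Zm00001d021763* had a high-confidence peak. Of those like *Zm00001d044402* 3 of 58 had one (5.17%), and 8 of 104 (7.69%) had one among those like *Zm00001d044399* and likewise among those like *Zm00001d044401*. These sets share genes, and over all 176 like genes 8 had a peak (4.55%). Over all spans, the share of genes with a peak was 51.8% at a mean input FPKM of 1 to 10, 58.6% at 10 to 50, 37.4% at 50 to 250, 10.2% at 250 to 1000, and 0 of 53 genes at 1000 and above. Among genes with spans near those of the family (398 to 2630.0 bp), the shares were 12.9%, 26.4%, 20.8%, and 6.52%, and 0 of 43. The classes at 250 to 1000 and at 1000 and above each include 3 of the light-harvesting genes themselves. The most abundant gene with a high-confidence peak, *Zm00001d031899*, had a mean input FPKM of 572, and *Zm00001d021435*, *Zm00001d011285*, and *Zm00001d021763* were above this value, and 86 genes in all were. Whether a peak can be called against so much input was not tested.

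**Figure D4:**
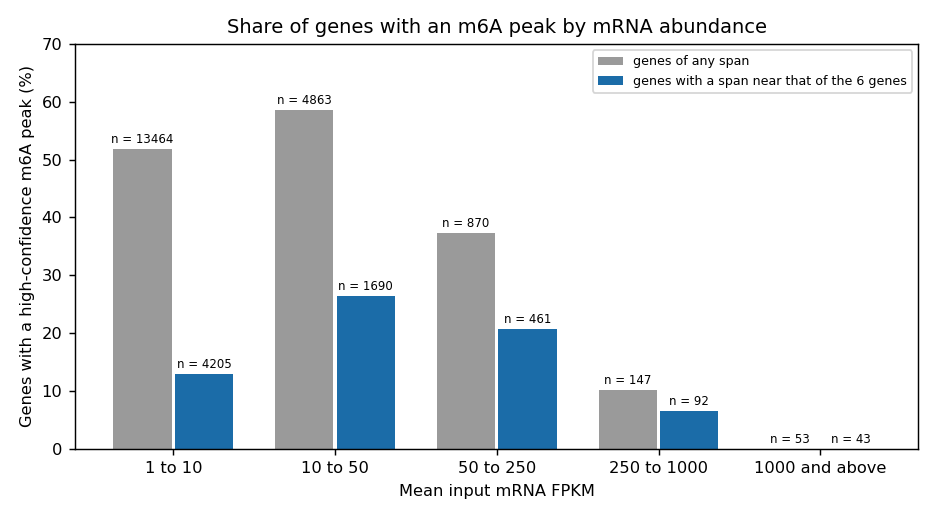
Percentage of Zm genes with a high-confidence m6A peak in 5 classes of mean input mRNA FPKM, with grey bars for genes of any span, blue bars for genes with a span near that of the 6 genes, and the number of genes above each bar. The share falls from 58.6% at 10 to 50 FPKM to 10.2% at 250 to 1000 FPKM, where the chromosome 3 genes lie, and no gene at 1000 FPKM and above has a peak. The 6 genes are counted in these classes.

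Peaks nearest to the family lay outside the 6 genes. The closest was 682 bp from *Zm00001d021763* in replicate 1 and 669 bp in replicate 2, beyond the 5′ end of that gene and inside *Zm00001d021764*, which lies on the same strand and had 52.2 and 53.7 FPKM in input mRNA. Its fold enrichment of 1.86 and 2.21 was near the lowest listed. Next to *Zm00001d011285* the nearest peak was 6395 and 6387 bp away, inside *Zm00001d011286*, with a fold enrichment of 5.12 and 6.17. That neighbour had 9.31 and 11.1 FPKM in input mRNA and 30.9 and 38.5 FPKM in polysome RNA. For *Zm00001d021435* the nearest peak was 13460 bp away in replicate 1 and 3646 bp in replicate 2. Around the chromosome 3 cluster no peak of either replicate was nearer than 84961 bp.

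The chromosome 3 cluster had other neighbours that were at or near 0. A gap of 249 bp separated *Zm00001d044398* from the start of *Zm00001d044399*, and one of 301 bp separated *Zm00001d044400* from that of *Zm00001d044401*, both neighbours being on the opposite strand. Both were listed at 0 FPKM in all 4 libraries. *Zm00001d044403*, after *Zm00001d044402*, had 0.487 and 0.338 FPKM in input mRNA and 0 and 0.236 FPKM in polysome RNA.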

How the data were processed

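The authors trimmed reads with Trimmomatic 0.35, mapped them to B73 RefGen_v4 (AGPv4.38) with HISAT2 2.1.0, and deposited StringTie FPKM per gene for 10 chromosomes. For m6A-seq, the authors deposited MACS2 peaks per replicate (*q*<0.01, input as control), with the fold enrichment (ratio) at the summit, −log10 *P* and *q* as MACS2 gave them, a score (10 times the −log10 *q*, cut to a whole number), and the deposited summit offset from the peak start. FPKM holds no counts, so depth is unknown, Xtail (named in the paper) was not run, and precision is the spread of 2 replicates, which held different values in 30845 (input) and 30298 (polysome) entries.

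The test of polysome against input RNA used limma 3.58.1 under R 4.3.3, with a trended prior variance, on log2(FPKM + 0.1), which understates changes of low genes, and the step was tested on simulated data. Python 3.11.15, numpy 2.4.6, pandas 2.3.3, and matplotlib 3.10.9 were used. The family was proposed, and the tests were chosen, with earlier results of these data known, although membership follows identifiers alone. All 6 genes are named. Other genes are named as the nearest profiles or as direct neighbours, and *Zm00001d031899* was chosen after its values were seen. Lists of pathway genes and leaf markers needed annotation by identifier (0 matched) and were not used. Alternatives covered the pseudocount, low-value filter, scaling, replicate block, peak overlap, *q*, the window for like genes, and each replicate left out.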

Additional observations from a re-analysis of the deposited data

How the results depend on the processing

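The count of 0 genes higher in polysome RNA became 3 without polysome replicate 2 (range 0 to 3 with each library left out), and the count of 0 lower became 1 with ENSRNA entries left out and libraries rescaled. That rescaling turned the log2 fold change of *Zm00001d021435* to −0.34, *Zm00001d021763* to −0.42, *Zm00001d044399* to −0.25, *Zm00001d044401* to −0.082, and *Zm00001d044402* to −0.22, and lowered the median translational efficiency from 1.31 to 0.820. It was 1.54 with median-centred libraries. The log2 fold change of *Zm00001d011285* was 0.20 with median-centred libraries and −0.20 to 0.14 with each library left out. The median place among like genes, 21.2%, was 12.5% with both windows at a factor of 1.5, 36.2% with abundance alone, and 21.2% to 25.0% with each replicate left out. The number of genes with an m6A peak was 0 under all 5 alternatives for peaks. Those on overlap, *q*, and summit only select among peaks of which none overlapped the genes, so they could give no other count. Over all entries, 4124 higher and 4340 lower calls became 1817 and 8786 after the rescaling.

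Replicate numbers did not pair the libraries by any label, and the deviations of same-numbered input and polysome libraries had a correlation of 0.02 across entries. With the replicate block, 3888 entries were higher and 3998 lower, and 0 of the 6 genes passed. Pseudocounts of 0.01 and 1 and the absence of a filter on low values changed none of these 6 calls. Of 60 fold changes of single genes under alternatives, 7 changed sign. Limits are 2 replicates per kind, unknown depth, and a scaling that fixes the sign.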
